A study of Mus musculus with 8 samples.

Results

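The 10 genes described here mark mast cells and eosinophils: Cpa3, Mcpt4, Cma1, Tpsb2, Kit, Fcer1a, Hdc, Siglecf, Epx and Alox15. They were named by symbol, and all 10 are among the 18835 genes with values in the deposited table, which lists 56941 genes. The hearts came from 8 BALB/cAJcl mice, all male and 10 weeks old, and their RNA was sequenced. Every animal had been immunized with cardiac myosin, which sets off an autoimmune inflammation of the heart muscle. In 4 of them VEGF-C C156S was injected into the peritoneal cavity at 1 µg per day from day 7 to day 10 after immunization, and 4 received PBS over the same days. In C156S a cysteine is changed so that the factor, which drives growth of lymphatic vessels, signals selectively through VEGFR-3. Hearts were taken in week 3, and no hearts of mice without immunization were analysed here. Per the labels the tissue is heart; the series title names lymphatic endothelial cells. The 6 cardiomyocyte markers summed to between 2326655 and 3157568 normalised counts in PBS and between 3161892 and 3543750 in VEGF-C. Taken singly, 0 of the 6 passed the test used below, and the groups did not overlap in 1 of them.

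Mast cells are tissue-resident granulocytes that mature under KIT ligand and store carboxypeptidase A3, chymases and tryptases with histamine and heparin in their granules. They release these when IgE on their high-affinity receptor is crosslinked. Eosinophils arise in bone marrow under interleukin-5, are drawn into tissue by eotaxins, and carry peroxidase and major basic protein in their granules. In myocarditis, eosinophils can infiltrate the heart, and mast cells lie near vessels and in the epicardium of the normal heart. Whole-tissue RNA cannot tell fewer cells of a type from less RNA per cell.

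Depth, as reads over the genes with values, was 61.7 to 76.8 M in PBS and 53.7 to 65.2 M in VEGF-C. A normalised count is a read count divided by the size factor of its library. PBS replicate 1 stood apart: on the second principal component of all genes, which held 19.7% of the variance, it scored 56.8 and the other 7 hearts between -25.6 and 5.8. The first component held 37.0%, and there it lay on the side of the PBS hearts. It scored 21.6, the other PBS hearts 29.5 to 40.6 and the VEGF-C hearts -39.2 to -29.7. Results whose call changes without this heart are given both ways. Where it is the lowest PBS heart of a gene, leaving it out must make the fold change more negative, so such a refit is no independent support.

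With all 8 hearts, 1 of the 10 genes passed the limma test at an adjusted p of 0.05, where 15.7% of all genes passed in either direction and 8.61% as lower. This was Hdc, lower in VEGF-C. All 10 fold changes were negative, with a median of -0.68 on the log2 scale, and the median over all genes was 0.00130. The groups overlapped in all 10, whereas they did not overlap in 23.0% of all genes. Without PBS replicate 1, the proteases Cpa3, Mcpt4, Cma1 and Tpsb2 and the eosinophil peroxidase gene Epx passed as lower and Hdc did not. That makes 5 of 10, where 15.4% of all genes passed in either direction and 8.7% as lower. Without VEGF-C replicate 2, 2 of the 10 passed as lower, Hdc and Siglecf, where 11.4% of all genes passed and 6.83% as lower. Leaving out any other heart left 0 of the 10 past the limma threshold, with 1 or 2 at an unadjusted p below 0.05. The share of all genes was then 11.2%, 10.6% and 11.5% without PBS replicates 2, 3 and 4 (6.65%, 6.23% and 6.27% as lower). It was 10.4%, 8.94% and 11.2% without VEGF-C replicates 1, 3 and 4 (6.24%, 5.8% and 6.7% as lower). Under other settings Hdc alone passed, with 20.3% of all genes (19.0% as lower) for library totals, 14.4% (10.2%) for upper-quartile factors, 15.2% (8.6%) for TMM factors and 15.4% (8.46%) for a pseudocount of 1. The same held with 15.9% (8.64%) for robust variances and 14.8% (8.02%) for limma-voom. Without a mean-variance trend 0 of the 10 passed limma, 1 at an unadjusted p below 0.05, with 12.3% (8.08%) of all genes.

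**Figure D1:**
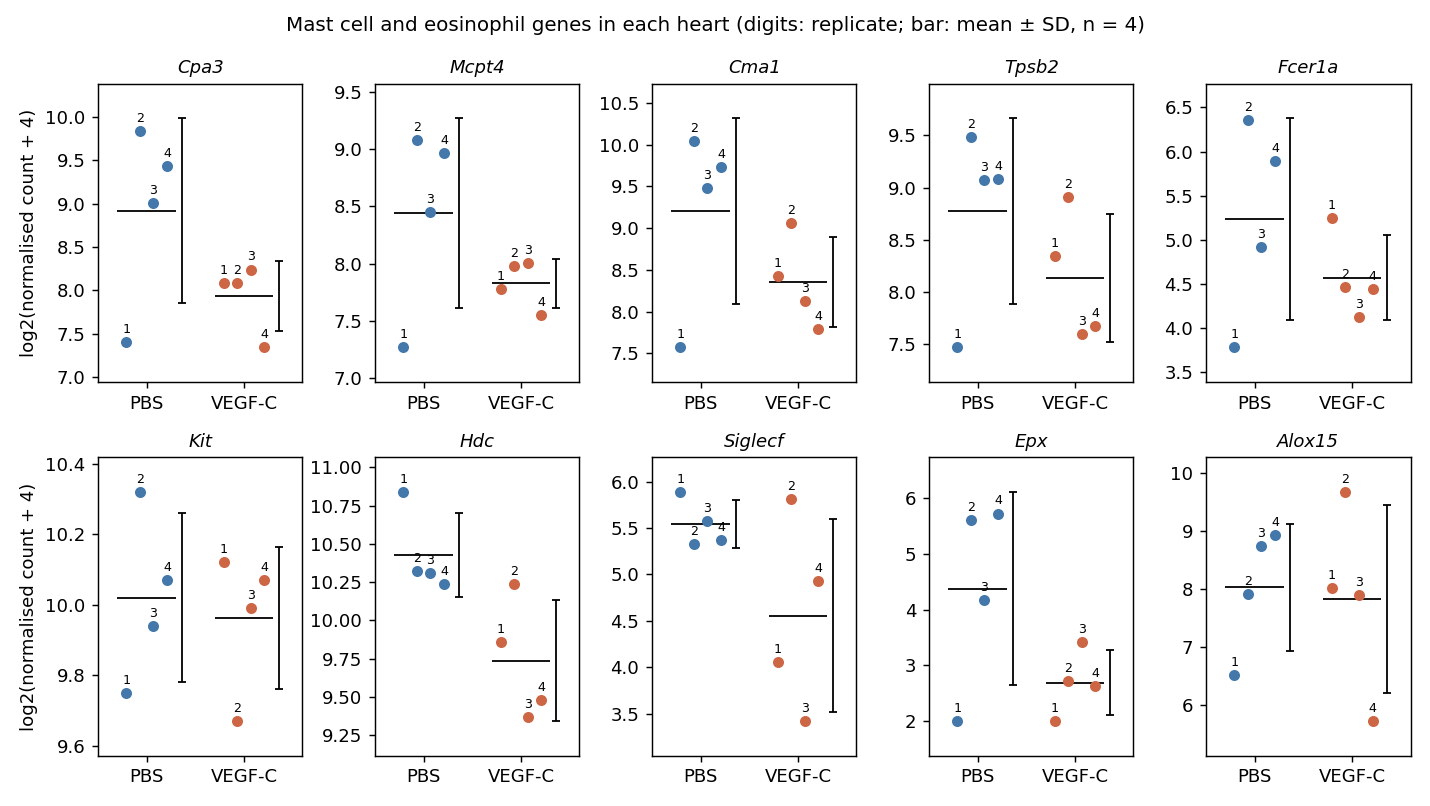
Deposited value, log2(normalised count + 4), of each gene (vertical axis) in each heart of the 2 groups (horizontal axis); digits are replicate numbers, the line is the group mean and the bar its SD over 4 hearts. PBS replicate 1 lies below the other PBS hearts in the 4 proteases, Fcer1a, Kit, Epx and Alox15 and above them in Hdc and Siglecf; a value of 2 in Epx is 0 reads.

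The granule proteases of mast cells were read at moderate levels in every heart. Cpa3 (ENSMUSG00000001865) encodes carboxypeptidase A3, which trims peptides after the chymases have cut them. It was at 164, 911, 511 and 686 normalised counts in PBS replicates 1 to 4 and at 267, 266, 298 and 158 in VEGF-C replicates 1 to 4. PBS replicates 2 to 4 were thus above every VEGF-C heart, and PBS replicate 1 was below 3 of the 4. The group means were 568 ± 315 and 247 ± 61.4 normalised counts (SD, n = 4). The difference of the mean log2 values was -0.98 ± 0.45 (SE; limma adjusted p = 0.158). Without PBS replicate 1 it was -1.49 ± 0.24 (limma adjusted p = 0.00494). Over all hearts left out in turn it ran from -1.49 to -0.676, with limma adjusted p from 0.00494 to 0.333.

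Mcpt4 (ENSMUSG00000061068) encodes a chymase of connective-tissue mast cells. Its values were 151, 537, 347 and 497 normalised counts in PBS and 216, 248, 254 and 184 in VEGF-C. PBS replicate 1 was the lowest of the 8 hearts and the other 3 PBS hearts the highest. Its log2 fold change was -0.61 ± 0.34 (limma adjusted p = 0.244), and -1.003 ± 0.18 without that heart (0.00805).

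Cma1 (ENSMUSG00000022225) encodes another mast cell protease of the chymase family. It was at 186, 1051, 709 and 846 normalised counts in PBS and at 341, 530, 276 and 217 in VEGF-C. The order was that of Mcpt4 at both ends: PBS replicate 1 lowest, PBS replicates 2 to 4 highest. The fold change of Cma1 was -0.85 ± 0.48 on the log2 scale (limma adjusted p = 0.249), and -1.40 ± 0.26 without PBS replicate 1 (0.00864).

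Tpsb2 (ENSMUSG00000033825) encodes a tryptase held on heparin in the granule. It was at 173, 710, 534 and 537 normalised counts in PBS and at 321, 475, 191 and 201 in VEGF-C, so that VEGF-C replicate 2 came close to PBS replicates 3 and 4. For Tpsb2 the log2 fold change was -0.64 ± 0.42 (limma adjusted p = 0.324), and -1.08 ± 0.29 without PBS replicate 1 (0.0322). Tpsb2 and its neighbour Tpsab1 are similar in sequence, and the sources used here do not give how reads were shared between them. The 4 proteases together summed to 674, 3209, 2101 and 2566 normalised counts in PBS and to 1146, 1520, 1018 and 759 in VEGF-C.

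Of the mast cell receptors, Fcer1a (ENSMUSG00000005339) encodes the IgE-binding subunit. It was at 9.80, 78.3, 26.3 and 55.1 normalised counts in PBS and at 33.9, 18.2, 13.4 and 17.7 in VEGF-C. Here VEGF-C replicate 1 was above PBS replicate 3, so the groups overlapped even when PBS replicate 1, the lowest of all, was set aside. For Fcer1a the log2 fold change was -0.67 ± 0.52 (limma adjusted p = 0.407), and -1.15 ± 0.41 without PBS replicate 1 (0.0814).

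Kit (ENSMUSG00000005672), the receptor for KIT ligand, is also made by melanocytes, progenitor cells and other cells of the heart. It was at 858, 1271, 976 and 1072 normalised counts in PBS and at 1110, 811, 1013 and 1069 in VEGF-C. The groups covered nearly the same span. The log2 fold change was -0.06 ± 0.14 (limma adjusted p = 0.811; -0.15 ± 0.13 without PBS replicate 1), and leaving out either replicate 2 changed its sign.

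The proteases, Fcer1a and Epx varied together from heart to heart (correlations follow), so the sequences before their transcription starts are shown. They are the 250 bases before the start from RefSeq, build GRCm38.p6, another build than the GRCm39 that the submitters' processing notes name. The positions are chr3:20242182-20242431 for Cpa3, chr14:56062311-56062560 for Mcpt4, chr14:55944676-55944925 for Cma1, chr1:173227230-173227479 for Fcer1a and chr11:87875537-87875786 for Epx, each on the minus strand and printed 5′ to 3′ along the gene. Capitals mark the GATA words AGATAA and TGATAA and the E-box words CACGTG and CATGTG, each sought on both strands. GATA2 and MITF, which bind such words, are transcription factors of mast cells.
Cpa3: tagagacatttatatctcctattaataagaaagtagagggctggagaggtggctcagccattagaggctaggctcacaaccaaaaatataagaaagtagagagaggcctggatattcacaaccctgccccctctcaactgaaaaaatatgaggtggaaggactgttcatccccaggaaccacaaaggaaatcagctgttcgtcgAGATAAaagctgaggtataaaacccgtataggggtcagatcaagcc
Mcpt4: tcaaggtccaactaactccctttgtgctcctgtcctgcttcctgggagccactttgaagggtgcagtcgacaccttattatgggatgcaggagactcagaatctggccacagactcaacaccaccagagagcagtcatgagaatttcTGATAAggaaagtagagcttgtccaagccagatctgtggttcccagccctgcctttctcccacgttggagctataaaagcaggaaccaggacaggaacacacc
Cma1: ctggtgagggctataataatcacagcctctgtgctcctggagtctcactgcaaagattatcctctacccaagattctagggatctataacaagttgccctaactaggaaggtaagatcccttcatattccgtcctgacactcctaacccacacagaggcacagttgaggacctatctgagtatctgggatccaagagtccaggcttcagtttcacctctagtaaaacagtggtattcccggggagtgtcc
Fcer1a: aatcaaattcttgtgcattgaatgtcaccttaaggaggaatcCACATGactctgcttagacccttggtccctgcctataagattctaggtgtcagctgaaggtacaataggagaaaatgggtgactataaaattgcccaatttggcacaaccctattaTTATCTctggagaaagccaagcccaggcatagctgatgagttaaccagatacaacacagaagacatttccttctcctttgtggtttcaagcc
Epx: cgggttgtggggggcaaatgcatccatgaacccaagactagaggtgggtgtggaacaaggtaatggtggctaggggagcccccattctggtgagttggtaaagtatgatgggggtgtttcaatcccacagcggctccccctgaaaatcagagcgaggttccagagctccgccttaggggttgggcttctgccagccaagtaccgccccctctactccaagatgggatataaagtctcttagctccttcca
A GATA word stood 46 bases before the start in Cpa3, 103 in Mcpt4 and, on the other strand, 92 in Fcer1a, each counted to the word's first base as printed. Cma1 and Epx held neither word in this window, and Fcer1a also held an E-box word 208 bases before the start. Of the 10 genes, 8 were found in the RefSeq table and Tpsb2 and Alox15 were not. A GATA word was present in 3 of the 8 and in 16.6% of 32851 promoter windows of the same length; an E-box word was present in 2 of the 8 and in 17.6%. The 2 sets of words share no position in these windows.

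Over the 8 hearts, the log2 values of Cpa3 were set against those of each of the other 9 genes, which gives 9 relations tested with exact two-sided permutations. Pearson's r with Mcpt4 was 0.98 (exact p = 0.000298, adjusted 0.00268) and Spearman's rho 0.95 (exact p = 0.00114, adjusted 0.0103). With Cma1 r was 0.94 (exact p = 0.000992, adjusted 0.00446) and rho 0.88 (exact p = 0.00724, adjusted 0.0326). With Tpsb2 they were 0.86 (exact p = 0.00615, adjusted 0.0138) and 0.79 (exact p = 0.0279, adjusted 0.0628). With Fcer1a they were 0.86 (exact p = 0.00947, adjusted 0.0171) and 0.76 (exact p = 0.0368, adjusted 0.0662). With Epx, a gene of eosinophils, they were 0.93 (exact p = 0.00218, adjusted 0.00655) and 0.84 (exact p = 0.0131, adjusted 0.0393).

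Kit and Alox15 had r of 0.56 and 0.57 (exact p = 0.151 and 0.133, both adjusted 0.194), with rho of 0.52 and 0.45 (exact p = 0.197 and 0.267, adjusted 0.295 and 0.344). Hdc and Siglecf had r of 0.21 and 0.12 (exact p = 0.610 and 0.797, adjusted 0.686 and 0.797), with rho of 0.19 and -0.14 (exact p = 0.665 and 0.752, adjusted 0.748 and 0.752). PBS replicates 2 and 4 lay farthest from the median of Cpa3. Without them r was 0.96 for Mcpt4, 0.87 for Cma1, 0.74 for Tpsb2, 0.54 for Fcer1a, 0.79 for Epx, 0.74 for Alox15 and 0.06 for Kit. For Hdc and Siglecf it was -0.0004 and -0.09. With the group means taken away, r was 0.98 for Mcpt4, 0.93 for Cma1, 0.83 for Tpsb2, 0.84 for Fcer1a and 0.89 for Epx. It was then 0.59 for Kit and 0.64 for Alox15, and -0.42 and -0.35 for Hdc and Siglecf. Without PBS replicate 1 (7 hearts, a description chosen after seeing the data), r was 0.98 for Mcpt4, 0.93 for Cma1, 0.82 for Tpsb2, 0.83 for Fcer1a and 0.91 for Epx. It was 0.44 for Kit, 0.46 for Alox15, 0.72 for Hdc and 0.36 for Siglecf. The r of Hdc thus changed much with that 1 heart. Its value of 0.72 includes the difference between the groups, as Cpa3 and Hdc both had negative fold changes. The groups of 4 hearts are too small for a correlation within each.

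Hdc (ENSMUSG00000027360) encodes histidine decarboxylase, the enzyme that makes histamine; mast cells, basophils and, in inflammation, neutrophils and other myeloid cells carry it. It was at 1830, 1276, 1261 and 1204 normalised counts in PBS and at 928, 1205, 659 and 708 in VEGF-C. PBS replicate 1 was the highest of all, and VEGF-C replicate 2 lay just above PBS replicate 4, the one overlap between the groups. Hdc fell from 1393 ± 293 to 875 ± 249 normalised counts (SD, n = 4). On the log2 scale it fell by 0.69 ± 0.20 (limma adjusted p = 0.0404). The call held in 7 of 8 other settings (limma adjusted p from 0.0112 to 0.0765) and was lost without a mean-variance trend. Of the hearts left out in turn, it held without VEGF-C replicate 2; without each other heart limma's adjusted p was at most 0.104 and above the threshold.

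Neutrophil markers lay on both sides in the heart highest in Hdc. Of 13, PBS replicate 1 was the highest PBS heart in 3, Csf3r, Cxcr2 and Mmp9, and the lowest PBS heart in the other 10. Csf3r, the receptor for granulocyte colony-stimulating factor, was at 5209, 2385, 3429 and 2595 normalised counts in PBS and between 1694 and 2016 in VEGF-C. It fell by 0.77 ± 0.21 on the log2 scale (limma adjusted p = 0.0316; 0.0183 without PBS replicate 1), and the call was lost without PBS replicate 3, without any 1 VEGF-C heart, with robust variances and with no mean-variance trend. Cxcr2, a chemokine receptor of neutrophils, was at 1051 in PBS replicate 1 and between 384 and 562 in the other PBS hearts. The part of these cells in the value of Hdc was not tested.

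**Figure D2:**
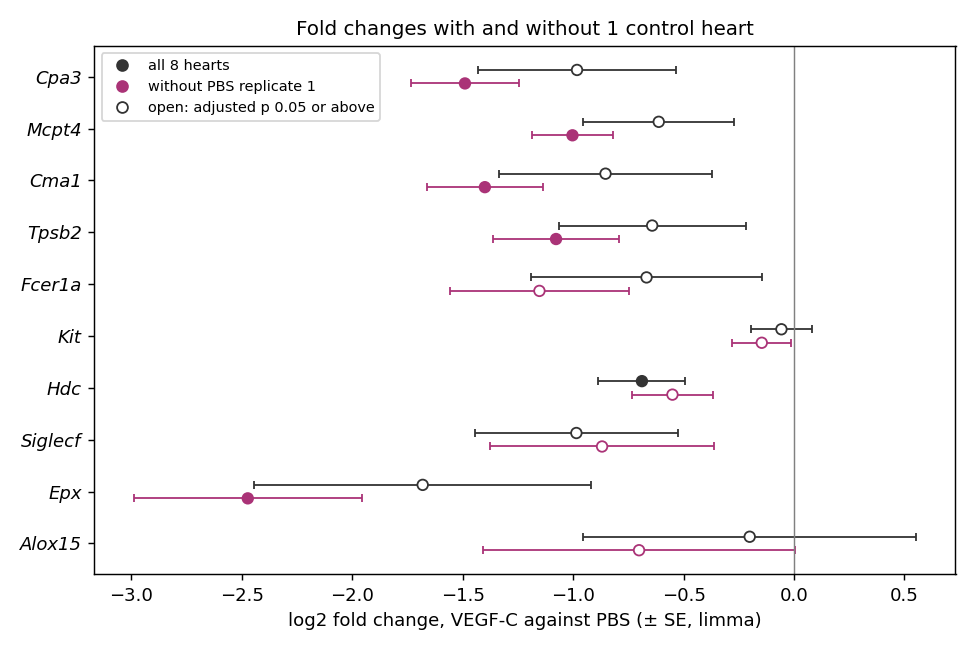
Log2 fold change of VEGF-C against PBS with its standard error (horizontal axis) for the 10 genes (vertical axis), from the limma fit of all 8 hearts and of the 7 hearts without PBS replicate 1. Filled points have an adjusted p below 0.05: Hdc with all hearts, and Cpa3, Mcpt4, Cma1, Tpsb2 and Epx without that heart.

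The 3 eosinophil genes did not share a pattern. Epx (ENSMUSG00000052234), the peroxidase of the eosinophil granule, was rare: PBS replicates 1 to 4 had 0, 46, 16 and 60 reads and VEGF-C replicates 1 to 4 had 0, 2, 6 and 2. PBS replicates 2 to 4 were above every VEGF-C heart, while PBS replicate 1 was without a read. A count of 0 allows up to 2.44 normalised counts in PBS replicate 1 and up to 3.18 in VEGF-C replicate 1, at 3 reads and for counting error only. These limits take each read as independent. All Epx counts were even, and if fragments were counted as 2 reads each, the limits would be higher. The values were 26.9 ± 23.7 in PBS and 2.88 ± 2.80 normalised counts in VEGF-C (SD, n = 4). As log2 fold change this was -1.68 ± 0.76 (limma adjusted p = 0.158), and -2.47 ± 0.52 without PBS replicate 1 (0.0133). These fold changes are on the log2(normalised count + 4) scale, which understates changes at such levels.

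Siglecf (ENSMUSG00000039013) encodes a sialic acid-binding receptor on eosinophils that is also found on alveolar macrophages. It was at 55.3, 36.2, 43.8 and 37.3 normalised counts in PBS and at 12.7, 52.0, 6.70 and 26.5 in VEGF-C. Apart from VEGF-C replicate 2, which was second only to PBS replicate 1, the treated hearts were below all PBS hearts. The log2 fold change was -0.99 ± 0.46 (limma adjusted p = 0.169; 0.265 without PBS replicate 1). Without VEGF-C replicate 2 it was -1.40 and passed (0.0458).

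Alox15 (ENSMUSG00000018924) encodes the 12/15-lipoxygenase of eosinophils and of resident macrophages of the serous cavities. It varied widely within both groups, with 87.9, 237, 424 and 481 normalised counts in PBS and 254, 813, 233 and 48.6 in VEGF-C. The highest and the lowest heart were both treated. The log2 fold change was -0.20 ± 0.75 (limma adjusted p = 0.882; -0.70 ± 0.71 and 0.535 without PBS replicate 1), and leaving out either replicate 4, or PBS replicate 3, changed its sign. Timd4, a receptor of serous cavity macrophages, was at 203, 466, 551 and 947 normalised counts in PBS and at 290, 301, 161 and 59.7 in VEGF-C (log2 fold change -1.44 ± 0.54, limma adjusted p = 0.0956; without PBS replicate 1 -1.84 ± 0.49 and 0.0315, past the threshold). VEGF-C replicate 4 was the lowest heart in both genes, and VEGF-C replicate 2 the highest treated heart in both. The 7 serous cavity macrophage markers summed to 31348 normalised counts in VEGF-C replicate 2, the maximum of the 8 hearts. Of the 7 only Saa3, at 15518, was itself highest in that heart. Timd4 and Cd5l were lower there than in PBS replicates 2 to 4 (Cd5l at 1212 against 1258, 1473 and 2141). Saa3 and Cd5l are named after their values were seen. The part of these macrophages in the value of Alox15 was not tested.

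In the authors' deposited table, 2 of the 10 genes are below an adjusted p of 0.05, where 21.7% of genes are in either direction and 11.4% as lower. They are Hdc, with a log2 fold change of -0.67 and an adjusted p of 0.00692 in the authors' deposited table, and Epx, with -3.23 and 0.0255. Mcpt4 and Cpa3 are at 0.0601 and 0.0769 in the authors' deposited table. Alox15 has a positive fold change there, 0.13.

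Other mast cell genes were taken from a list. Of 17 further mast cell genes 11 had values, and with all 8 hearts 0 passed limma; without PBS replicate 1 there were 4, all lower. The list's median fold change was -0.18, and -0.21 without that heart. Ms4a2, the beta subunit of the IgE receptor, was at 9.80, 33.3, 33.3 and 42.1 normalised counts in PBS and at 4.20, 5.20, 13.4 and 8.80 in VEGF-C (-1.42 ± 0.44, limma adjusted p = 0.0525; 0.0128 without PBS replicate 1). Mrgprb1, an orphan receptor of the Mrgpr family, was at 7.30, 43.0, 28 and 43.8 in PBS and between 5.20 and 13.4 in VEGF-C (-1.14 ± 0.48, limma adjusted p = 0.132; 0.0180 without that heart). The other 2, named after their values were seen, were the tryptase Tpsab1 (-1.07 without that heart, limma adjusted p = 0.0162) and Tph1, which makes serotonin (-1.83, 0.0424).

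The transcription factors Gata2 and Mitf, which many other cells of the heart also make and which are named after their values were seen, had fold changes of 0.09 ± 0.10 and 0.06 ± 0.11. Ndst2, needed for heparin in the granule but also made elsewhere, had all VEGF-C hearts (1661 to 1884 normalised counts) below all PBS hearts (1937 to 2101), with a log2 fold change of -0.18 ± 0.07 and a limma adjusted p of 0.101.

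Of 9 further eosinophil genes 7 had values and 0 passed with all hearts (median fold change -0.80). Without PBS replicate 1, 1 passed as lower and the median was -1.20. The one that passed was Prg2, the gene of the granule's major basic protein, at 9.80, 219, 84.1 and 158 normalised counts in PBS and 36.1, 77.9, 26.9 and 19.9 in VEGF-C. Its log2 fold change was -1.04 ± 0.77 with all hearts and -1.90 ± 0.44 without PBS replicate 1 (limma adjusted p = 0.376 and 0.0193). Il5ra, the interleukin-5 receptor, was at 8.10, 86.1, 15.8 and 33.2 in PBS and between 2.20 and 20.8 in VEGF-C (-1.30 ± 0.64, limma adjusted p = 0.192). Cebpe, a transcription factor of late granulocyte development, had a fold change of -0.80 ± 0.55 and Ear6, a ribonuclease gene whose near relatives may share its reads, of -1.16 ± 0.72. Ccr3, the eotaxin receptor, was at 8.10, 11.7, 68.3 and 8.10 in PBS and between 17.9 and 31.2 in VEGF-C; it is named after its values were seen.

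Of 5 basophil genes 4 had values and 1 passed, Il18rap, an interleukin-18 receptor chain that lymphocytes also carry. It fell by 1.04 ± 0.23 on the log2 scale (limma adjusted p = 0.0165) and passed without any 1 heart. The basophil protease Mcpt8 (-0.77 ± 0.61), the receptor Cd200r3 (-1.33 ± 0.50) and the cytokine Il4 (-0.39 ± 0.27) did not pass.

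**Figure D3:**
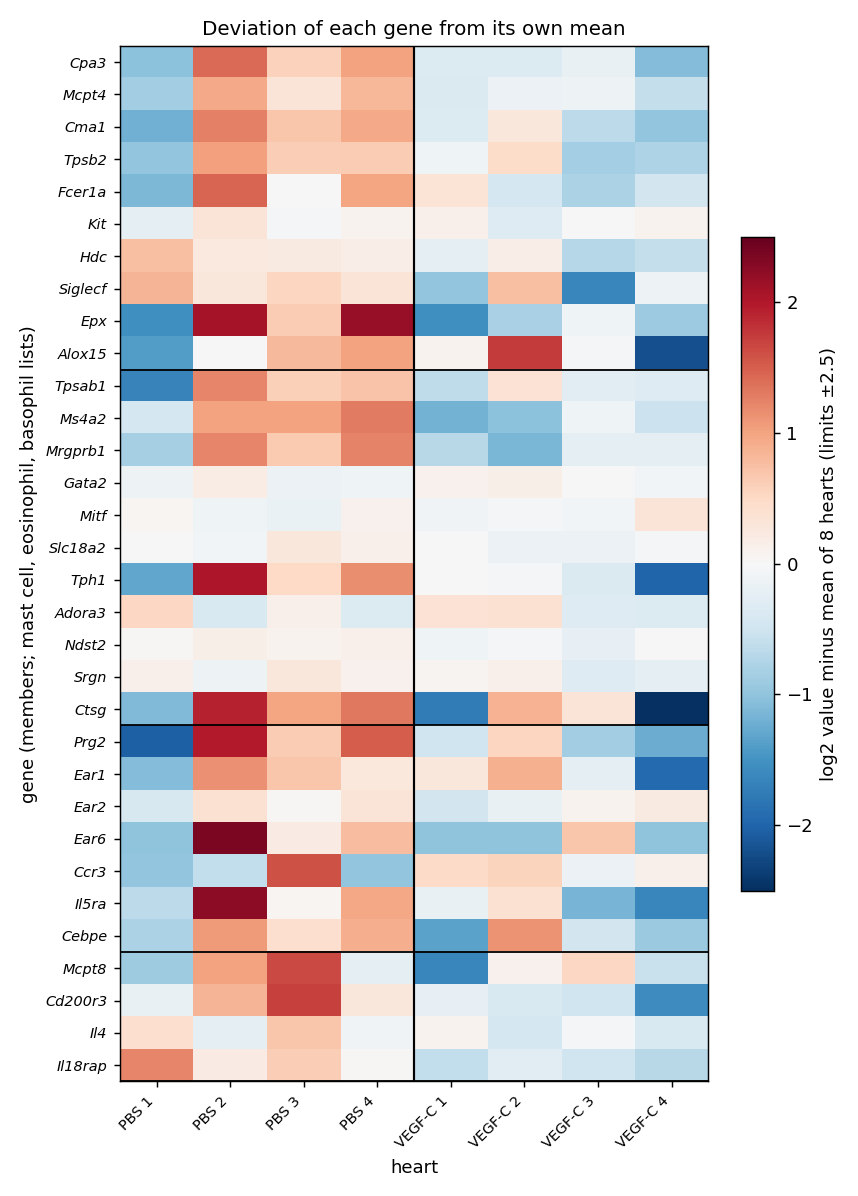
Each row is a gene and each column a heart; colour is the log2 value minus the gene's mean over the 8 hearts, with the 10 genes on top and the mast cell, eosinophil and basophil lists below. Cpa3, Mcpt4, Cma1, Tpsb2, Tpsab1, Epx and Prg2 are high in PBS replicates 2 to 4 and low in PBS replicate 1, while Hdc and Siglecf are high in PBS replicate 1.

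The likeness of all other genes to the mean log2 value of the 4 proteases was ranked over the 8 hearts among 14917 genes. These were the 18810 with a mean of at least 10 normalised counts, less the 10 genes themselves and 3883 predicted genes, genes without a symbol of their own and immunoglobulin segments. Nothing follows about shared function, and no p is given for the likeness, because these are the highest of many. Prg2 came first, with r of 0.98 and rho of 1.00 (r 0.96 without the 2 hearts farthest from the median), so that an eosinophil granule gene followed the mast cell proteases most closely. Ppp1r35 (r 0.98), the transferrin gene Trf (0.97), the adhesion receptor Adgrd1 (0.97) and the dynein gene Dnah1 (0.97) came next. None of the 5 passed limma with all hearts (adjusted p from 0.210 to 0.376). All 5 passed as lower without PBS replicate 1 (from 0.0193 to 0.0496), where r was 0.96 to 0.98. They were chosen by their values in these same hearts, so a change of call like that of the proteases follows from the choice. With the group means taken away, the highest were the thromboxane receptor Tbxa2r (r 0.99), Prss35 (0.99), Prg2 (0.99), Mex3a (0.98) and Sox8 (0.98). Tbxa2r had r of 0.39 over the 8 hearts as they stand and -0.18 without PBS replicate 1. Without that heart Mex3a, also chosen by its values in these hearts, passed as lower (-0.65, limma adjusted p = 0.0177).

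As in the proteases and Epx, PBS replicate 1 was low in most neutrophil markers, many granule genes among them, but it was the highest PBS heart in Mmp9. It was also the lowest PBS heart in 5 of the 7 serous cavity macrophage markers and in 2 of the 4 B cell markers. The 13 neutrophil markers, all with values and none at 0 reads in any heart, summed to between 18054 and 55416 normalised counts in PBS and between 13012 and 45014 in VEGF-C. PBS replicate 1 had the PBS minimum of this sum, to which abundant genes such as S100a9, named after its values were seen (6191 normalised counts in that heart, 13269 to 21660 in the other PBS hearts) add most. Elane, neutrophil elastase, a gene of granulocyte precursors, was at 30.9, 525, 305 and 386 normalised counts in PBS and 25.4, 342, 226 and 42.0 in VEGF-C; it is named after its values were seen. With all hearts 2 of the 13 passed as lower (median fold change -0.71), Csf3r and the protease Mmp9 (-0.91 ± 0.20), and without PBS replicate 1 there were 5 (median -1.28). Mmp8 (-0.71 ± 0.34) did not pass. The part of granulocyte precursors in the values of Epx and Prg2 was not tested.

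Among the ligands of these cells, 1 gene passed. Of 12 entries for KIT ligand, type 2 cytokines, alarmins and eotaxins 6 had values; Il3, Il5, Il9, Il13, Il25 and Csf2 had none. This was Kitl, the growth factor that binds KIT: it was at 3097, 3205, 3808 and 3401 normalised counts in PBS and at 4250, 3606, 4520 and 4573 in VEGF-C. It rose by 0.33 ± 0.10 on the log2 scale (limma adjusted p = 0.0456). The call was lost with library totals, upper-quartile factors and no mean-variance trend; of the hearts left out in turn, it held for PBS replicate 3 and VEGF-C replicate 2, with a limma adjusted p of at most 0.120. The eotaxin genes Ccl11 (-0.45 ± 0.24) and Ccl24 (-0.43 ± 0.28) and the alarmin gene Il33, named after its values were seen (-0.000499 ± 0.17), did not pass. The list's median was -0.26.

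The receptors of these ligands were the next list. Of 12, all with values, 3 passed as lower and 1 as higher (median -0.53; the same counts without PBS replicate 1). Il9r, the receptor for the mast cell growth factor interleukin-9, which B cells also carry, was at 84.6, 119, 63.9 and 130 normalised counts in PBS and at 14.8, 29.9, 17.9 and 8.80 in VEGF-C. No VEGF-C heart reached the lowest PBS heart. Il9r fell by 2.28 ± 0.34 on the log2 scale (limma adjusted p = 0.00273), and passed without any 1 heart (limma adjusted p up to 0.0107).

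Csf2ra, the ligand-binding chain for the growth factor GM-CSF, was at 2568, 2058, 2162 and 2184 normalised counts in PBS and at 1032, 1066, 846 and 869 in VEGF-C. The groups lay far apart, and Csf2ra fell by 1.23 ± 0.10 on the log2 scale (limma adjusted p = 0.000145), passing without any 1 heart. The shared signalling chains Csf2rb (-0.80 ± 0.26) and Csf2rb2 (-0.73 ± 0.25), close copies whose reads may be mixed, did not pass (limma adjusted p = 0.0663 and 0.0718; Csf2rb2 passed without PBS replicate 2, 0.0426). Both were highest in PBS replicate 1, at 8859 and 4641 normalised counts.

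Il1rl1, the interleukin-33 receptor of mast cells and type 2 lymphocytes, was at 225, 235, 201 and 219 normalised counts in PBS and at 129, 159, 94.1 and 164 in VEGF-C. The groups did not overlap, and it fell by 0.70 ± 0.18 (limma adjusted p = 0.0299). The call held without PBS replicate 1, VEGF-C replicate 2 or VEGF-C replicate 4 and was lost without each other heart, where limma's adjusted p reached 0.0693. Il13ra1, a chain of the interleukin-4 and interleukin-13 receptor, rose by 0.30 ± 0.09 (limma adjusted p = 0.0457). Its call was lost with each other scaling, with no mean-variance trend and without any 1 heart except PBS replicate 1 (limma adjusted p up to 0.108).

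Of 14 genes of the IgE receptor and its signalling, which T cells, B cells and macrophages share in large part, 3 passed as lower and 1 as higher (median -0.25). Btk, a kinase of B cells and myeloid cells, was between 595 and 748 normalised counts in PBS and between 420 and 442 in VEGF-C, and fell by 0.60 ± 0.10 (limma adjusted p = 0.0050). The adaptor Lat2 fell by 0.60 ± 0.12 (0.0101), and the exchange factor Vav1 by 0.41 ± 0.11 (0.0293; lost without a mean-variance trend, without PBS replicate 3 and without each of VEGF-C replicates 1 to 3). The kinase gene Fyn rose by 0.38 ± 0.08 (limma adjusted p = 0.0131; lost with library totals). The shared gamma chain Fcer1g had a fold change of -0.37 ± 0.17 and the kinase Syk of -0.24 ± 0.08 (limma adjusted p = 0.168 and 0.0595). Without PBS replicate 1 there were 4 lower, with Ms4a2, and 1 higher.

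Of 7 genes of histamine receptors and breakdown 4 had values and 0 passed (median -0.29). Hrh2, the H2 receptor, was at 320, 134, 205 and 119 normalised counts in PBS and between 70.1 and 109 in VEGF-C, without overlap (-0.91 ± 0.29, limma adjusted p = 0.0619; 0.0413, past the threshold, without PBS replicate 4). Hrh1 (-0.61 ± 0.30) and the histamine-degrading Hnmt (0.09 ± 0.17; negative with library totals) did not pass. The H2 receptor gene had its highest value in the heart highest in Hdc, as did Csf2rb, Csf2rb2 and Csf3r. A link between Hrh2 and Hdc was not tested.

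Of 15 genes of lipoxygenase, leukotriene and prostaglandin D2 synthesis 13 had values, and 2 passed as lower (median -0.29; also 2 without PBS replicate 1). Hpgds, the prostaglandin D2 synthase of mast cells and macrophages, was at 463, 481, 503 and 370 normalised counts in PBS and at 240, 257, 273 and 304 in VEGF-C. The groups did not overlap; it fell by 0.75 ± 0.13 (limma adjusted p = 0.00596) and passed without any 1 heart. Cysltr2, a leukotriene receptor, was between 37.3 and 92.8 in PBS and between 23.4 and 27.6 in VEGF-C (-1.06 ± 0.28, limma adjusted p = 0.0312). Its call was lost with limma-voom and without any 1 heart except PBS replicates 2 and 4 (limma adjusted p up to 0.0719). Ptgs2 (-0.54 ± 0.21; past the threshold without VEGF-C replicate 3), Ltb4r1 (-0.67 ± 0.30) and Lta4h (0.14 ± 0.08; negative with library totals) did not pass. Without PBS replicate 1, the leukotriene C4 synthase gene Ltc4s was the other one to pass (-0.93, limma adjusted p = 0.0287) beside Hpgds, and is named after its values were seen.

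**Figure D4:**
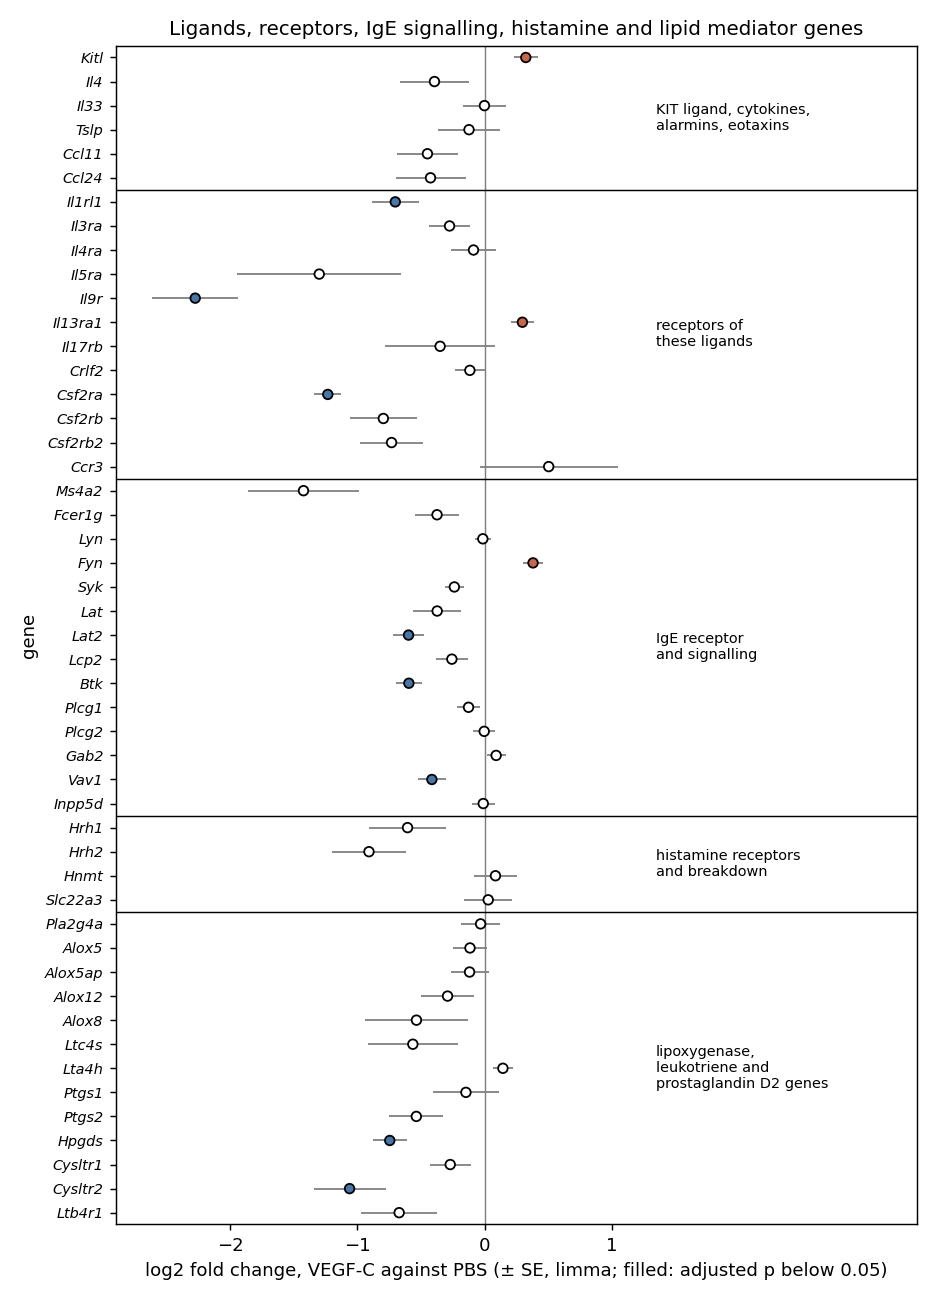
Log2 fold change of VEGF-C against PBS with its standard error (horizontal axis) for each gene with values in the 5 pathway lists (vertical axis), from limma with all 8 hearts; filled points have an adjusted p below 0.05, blue lower and red higher. Il9r and Csf2ra are the lowest filled points, at -2.28 and -1.23.

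Genes of other cells, of which only some make transcripts of the 10 genes, were measured beside them. The 4 B cell markers used, none at 0, summed to between 2093 and 3395 normalised counts in PBS and between 644 and 1482 in VEGF-C, and 3 passed as lower (4 without PBS replicate 1, with Ms4a1 at a limma adjusted p of 0.0497). Their log2 fold changes were -1.04 ± 0.19 in Cd22, -1.56 ± 0.36 in Cd79a (lost without VEGF-C replicate 3) and -1.17 ± 0.28 in Cd79b (lost without that heart and without PBS replicate 2). The part of B cells in Il9r and Btk was not tested. Of 7 serous cavity macrophage markers, none at 0, 1 passed as higher, Gata6 (0.41 ± 0.09; lost with library totals), which heart muscle also makes, and without PBS replicate 1 Timd4 passed as lower too; their sums were 20123 to 26745 in PBS and 15346 to 31348 in VEGF-C. Of 5 alveolar macrophage markers 4 had values and 0 passed, with sums of 1148 to 1416 and 829 to 1517; Ear1 was at 0 in a VEGF-C heart. Of 8 dendritic cell markers 0 passed (3949 to 6346 and 2798 to 4084). Of 8 type 2 lymphocyte markers 6 had values and Il1rl1 passed as lower (1917 to 2662 and 2104 to 2628). Of 5 melanocyte markers 3 had values and 0 passed (360 to 586 and 450 to 760), and Tyr and Tyrp1 had none. Of the 6 pan-macrophage markers 0 passed (20664 to 24108 and 19162 to 21599). Cardiomyocyte markers had 0 of 6 passing, with all hearts and without PBS replicate 1. The 4 hemoglobin genes, near-identical in pairs, summed to 74137 to 219506 in PBS and 144143 to 583314 in VEGF-C and 0 passed; VEGF-C replicate 2 had the maximum. The part of these cells in the 10 genes was not tested.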

How the data were processed

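Each sample's treatment label set its group. The labels name an animal for each sample, but the 8 columns of the deposited table name only the group and a number, which serves as replicate number here; p-values measure the spread between these hearts. Total RNA of heart tissue was made into stranded mRNA libraries and sequenced on a NovaSeq 6000, per the labels' protocols. Per the submitters' processing notes the authors worked on GRCm39 with DESeq2 1.38.3, Subread 2.0.1, featureCounts, STAR 2.7.10a and Trim Galore 0.6.10. Annotation, strand and counting settings and the rule that left 38106 genes without values: not given in the sources used here.

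Expression was deposited as log2 values. Read back, each is log2(x + 4), with x the reads of a gene over the library's size factor: 100% of the values checked, which covered at least 97.2% of genes in each library, were whole within 0.01 reads, and the factors equalled median-of-ratios factors. Of genes with fewer than 50 reads, 76.0% to 79.5% per library had an even count, so reads may not all be independent fragments. The authors' p-values and log2 fold changes are used only where their deposited table is named.

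limma 3.58.1 (R 4.3.3), with a mean-variance trend, 1 factor and 6 residual degrees of freedom, was fitted to all 18835 genes, and p-values were adjusted by Benjamini-Hochberg over all of them (two-sided, threshold 0.05). It was tested on simulated data. Alternatives were library totals, upper-quartile and TMM factors, a pseudocount of 1, a mean of at least 10 normalised counts, limma-voom on the recovered reads, robust variances, no trend, and leaving out each heart. Permutations used scipy 1.17.1. The 10 genes and 18 gene lists were chosen with earlier results of these data known. Besides the 10, genes to name were every list gene that passed and up to 3 others with the smallest p (2 for markers of other cells), and the 5 genes most like the proteases by each of 2 measures; predicted genes and immunoglobulin segments were left out. A marker of the B cell list is not reported here.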

Additional observations from a re-analysis of the deposited data

Results flagged for a closer look

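Values of 1 heart far from the other 3 of its group were sought on the log2 scale in the 10 genes and 67 further named genes, 154 groups in all, by the gap to the nearest heart over the group's range against Dixon's critical value. Chance gives such a gap in about 1 in 20 groups, and 3 were found, which is fewer than that share of 154. Hdc in PBS had PBS replicate 1 as its highest heart, at 1830 normalised counts against 1204 to 1276, with a ratio of 0.863. Lat2 in PBS had the same heart highest, at 748 against 547 to 569, with 0.874. Ear6 in VEGF-C was at 0 in 3 hearts and at 9 normalised counts in VEGF-C replicate 3, with 1.0.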

How the results depend on the processing

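Of the 10 genes 1 passed in limma with all hearts, the same number as under each other scaling, the pseudocount of 1, the filter, limma-voom and robust variances; without a mean-variance trend the number was 0 (1 at an unadjusted p below 0.05), by the authors' adjusted p-values, an alternative chosen after seeing the data, it was 2, and leaving out 1 heart gave 0 to 5. The median fold change of the 10 ran from -1.04 to -0.49 over the hearts left out and kept its sign in every setting run. Over all genes 2949 passed (1328 higher, 1621 lower), and leaving out 1 heart gave 1684 to 2906, with the lowest counts without VEGF-C replicate 3 (1684) and VEGF-C replicate 1 (1956). The split was 243 higher and 3572 lower with library totals, which moved the median of all genes to -0.19, 797 and 1920 with upper-quartile factors, and 797 and 1522 without a trend. With library totals the Hnmt log2 fold change turned to -0.104 and the Lta4h log2 fold change to -0.047. Over the hearts left out, fold changes that changed sign ran from -0.82 to 0.50 in Alox15, from -0.146 to 0.042 in Kit, from -0.019 to 0.218 in Hnmt, from -0.729 to 0.023 in Marco, from -1.05 to 0.28 in Prss35, and from -0.52 to 0.15 in Sox8. The cause was not tested. No paired analysis was possible because the labels give the groups no shared replicate numbers and the column numbers tie to no animal. Low reads limit Epx, Fcer1a, Siglecf, Ms4a2, Mrgprb1, Ear6 and Cd200r3.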
